A study of Mus musculus with 34 samples.

Results

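BATF sites preferred in conventional CD4 T (Tconv) cells are the BATF peaks at which the chromatin immunoprecipitation (ChIP-seq) signal of Tconv cells was at least 2-fold that of regulatory T (Treg) cells. A peak was taken when the mean of the 2 Treg libraries plus 1, divided by the mean of the 2 Tconv libraries plus 1, was at most 0.5, and both Tconv values were at least 20. This held at 675 of 16109 BATF peaks (4.19%). For comparison, 2068 peaks differed by 2-fold or more the other way, with both Treg values at least 20, and are called Treg preferred. A further 13193 peaks with both Tconv values at least 20 lay between these 2-fold limits and are called shared. The sites were chosen on the BATF values of Treg and Tconv cells, so those values are given below as a description and no test was made on them.

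Lymph nodes and spleens of C57BL6/J animals supplied all of the cells. Treg cells (CD4+hCD2+) and Tconv cells (CD4+hCD2-) came from Foxp3-IRES-hCD2 reporter mice, in which surface human CD2 marks cells that transcribe Foxp3. BATF was measured in 2 libraries each of Treg and Tconv cells and IRF4 in 4 libraries each. BATF was also measured in 2 libraries of Foxp3R397W-IRES-hCD2/Foxp3-IRES-GFP Treg cells and 2 of Foxp3WT-IRES-hCD2/Foxp3-IRES-GFP controls, both sorted as CD4+hCD2+GFP-. The 2 reporter alleles of those mice let cells that use the hCD2 allele be sorted from animals that also carry a wild-type GFP allele. Foxp3 was measured in 2 libraries each of effector Treg cells (CD4+hCD2+CCR7loCD62Llo), central Treg cells (CD4+hCD2+CCR7hiCD62LhiCD44lo), all Treg cells, and Treg cells of Foxp3-IRES-hCD2.Batf-/- mice, which lack Batf in every cell. Nothing in the labels says whether libraries of a group came from separate animals, so p-values measure only the spread between these libraries. Reads in peaks per library numbered 1377509 to 2280493 in the first BATF table, 144319 to 1009580 in the second, 162580 to 336969 for IRF4 and 164740 to 393310 for Foxp3. BATF binding peaks were found at Cd4, Cd3e and Cd3g in both cell types, with Cd4 at 179 in Treg and 161 in Tconv cells. The peak at Foxp3 stood at 112 in Treg cells and 1.74 in Tconv cells, the latter from values of 3.48 and 0.

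BATF is a basic leucine zipper factor of the AP-1 family that has no activation domain of its own. It pairs with a Jun protein and binds AP-1 elements, and with IRF4 it binds composite elements in which an AP-1 motif lies next to an interferon regulatory factor motif. In CD4 T cells it is known for its part in T helper 17, T follicular helper and effector Treg differentiation. Foxp3, a forkhead factor, defines the Treg lineage.

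The only reference sequence at hand was of promoters, from 250 bases before to 50 bases after each annotated start (RefSeq, GRCm38.p6, the assembly known as mm10). Of these windows, 41 from 36 genes were covered by a Tconv preferred BATF site over at least 150 bases. Below are the bases before the start for 4 of them, chosen after their values were seen. Prf1, which encodes perforin, a pore-forming cytotoxic protein, lies at chr10:61297586-61297835 on the plus strand. Themis, which encodes an adaptor of T cell receptor signalling, lies at chr10:28668110-28668359 on the plus strand, and its site carried IRF4 and Foxp3 peaks. Gm29952, a predicted gene, lies at chr12:80273187-80273436 on the plus strand, and its site, nearest to the gene body of Actn1, also carried both. Xkrx, which encodes a member of the XK family of membrane proteins, lies at chrX:134162960-134163209 on the minus strand and is the single window with an AP-1 match. Capitals mark matches to the motifs listed after the sequences, on either strand.
Prf1: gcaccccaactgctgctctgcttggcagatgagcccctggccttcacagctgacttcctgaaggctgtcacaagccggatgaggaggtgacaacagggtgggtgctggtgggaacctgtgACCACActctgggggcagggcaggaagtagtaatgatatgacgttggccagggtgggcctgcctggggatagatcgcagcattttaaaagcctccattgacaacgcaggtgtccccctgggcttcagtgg
Themis: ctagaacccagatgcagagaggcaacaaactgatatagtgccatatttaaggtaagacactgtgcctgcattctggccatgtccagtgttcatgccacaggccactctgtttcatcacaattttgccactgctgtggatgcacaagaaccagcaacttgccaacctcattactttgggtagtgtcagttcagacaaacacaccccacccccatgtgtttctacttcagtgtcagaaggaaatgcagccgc
Gm29952: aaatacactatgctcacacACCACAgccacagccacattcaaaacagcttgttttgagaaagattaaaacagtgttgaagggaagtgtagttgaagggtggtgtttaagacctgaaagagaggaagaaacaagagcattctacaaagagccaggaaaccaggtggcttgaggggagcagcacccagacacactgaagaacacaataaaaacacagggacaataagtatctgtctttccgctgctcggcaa
Xkrx: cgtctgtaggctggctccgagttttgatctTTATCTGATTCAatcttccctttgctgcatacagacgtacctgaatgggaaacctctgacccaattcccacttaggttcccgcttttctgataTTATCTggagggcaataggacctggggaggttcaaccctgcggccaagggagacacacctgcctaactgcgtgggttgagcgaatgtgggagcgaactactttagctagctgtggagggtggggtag

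Each of 10 motifs was searched on both strands. The AP-1 motif was written as TGANTCA, the letters at which Fos, Jun and BATF dimers are known to bind. The 3 IRF related motifs were built on the core GAAA: the interferon response motif (the core, 2 bases of any kind and the core again), an AP-1 motif with the core joined to its start, and an AP-1 motif with the core 4 bases after its end. The Runx motif was written as TGTGGT and the Ets motif, common in promoters, as CCGGAA. For TCF factors such as that encoded by Lef1 the letters were CTTTGA. Forkhead and GATA motifs were written as TGTTTAC and, for GATA, as AGATAA. The T-box motif, bound by factors such as Eomes, was AGGTGTGA. The joined and spaced forms contain the AP-1 motif, and the interferon response motif can overlap their core. The AP-1 match of Xkrx, TGATTCA, starts 215 bases before the start site, and a GATA match that begins 220 bases before it overlaps its first base. Prf1 and Gm29952 each held 1 Runx match, at 130 and 231 bases before the start, and the printed Themis stretch held none of the motifs. The AP-1 motif was present in 2.44% of the 41 windows on Tconv preferred sites, against 3.94% of 6957 windows on shared peaks, 21.7% of 69 on Treg preferred peaks and 7.81% of all 32817 promoter windows. The Ets motif was in 7.32% of the windows on Tconv preferred sites, against 38.5% on shared peaks and 14.9% of all windows. Shares on Tconv preferred sites and over all windows were 14.6% and 16.8% for Runx, 17.1% and 16.0% for TCF (4 of the 7 windows with a TCF match belong to Gm11695 and 1 site, and by gene 4 of 36 had one, 11.1%), 2.44% and 3.65% for forkhead, 4.88% and 11.2% for GATA and 4.88% and 1.27% for T-box. Neither the interferon response motif (3.43% of all windows) nor the joined (0.125%) and spaced (0.119%) motifs occurred in the 41 windows. A match here is a description of letters, and most Tconv preferred sites lie outside such windows.

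Tconv preferred sites were weak to moderate BATF peaks. Their median value was 56.3 in Tconv cells and 18.2 in Treg cells, in units of the deposited normalised peak score (reads in the peak times 1 factor per library), while shared peaks had medians of 92.0 and 91.6. The median ratio corresponded to a 2.75-fold higher value in Tconv cells on the scale of value plus 1, with a range from 2.00 to 43.9. A ratio of at least 4-fold was reached at 151 sites and of at least 10-fold at 20. No site was without reads in both Treg libraries, and at 673 of the 675 every Treg value lay below every Tconv value, a separation that the choice of sites largely fixes. The plot of Treg against Tconv values places them as a cloud of low Treg values, with no mean above 239.

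**Figure D1:**
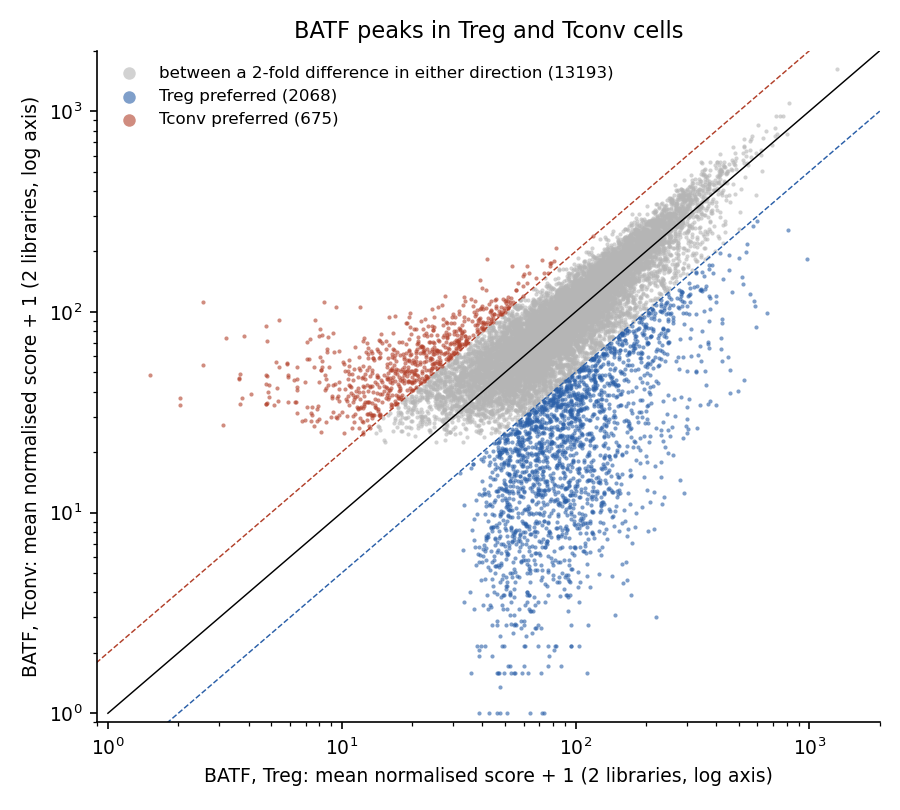
Mean BATF score plus 1 in Treg (x, log axis) and Tconv cells (y, log axis), each point 1 peak and each mean over 2 libraries. The 675 Tconv preferred sites (red) lie above the upper dashed line of a 2-fold difference by construction, with Tconv values from 23.7 to 239, the 2068 Treg preferred peaks (blue) lie below the lower dashed line, and the 13193 peaks between them are grey.

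Most Tconv preferred sites lay far from promoters. Starts on chromosome 18, with 20 of the sites, were not used here, and 1 site on an unlocalised sequence of chromosome X had no start distance. Of the other 654 sites 49 (7.49%) were within 1000 bp of one, against 52.6% of shared and 5.56% of Treg preferred peaks, and the median distance was 24922.5 bp. Starts were missing elsewhere too. The Foxp3 peak on a site near Rnf19a lay 53693 bp from the gene body but 3797320 bp from the nearest start used. Some start distances are therefore too long. A protein-coding gene body lay within 100000 bp of 645 sites, which were assigned to 531 genes, and 423 sites (62.7%) overlapped one. Assignment to the nearest gene is a matter of position and does not show which gene a site acts on. The sites were spread thinly: 449 genes had 1 site, 60 genes had 2, 18 genes had 3 and 4 genes had 4 or more. Sites were found on every autosome and on chromosome X, where 4 of 349 BATF peaks (1.15%) were Tconv preferred.

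Lef1, which encodes a TCF family factor of naive and memory-like T cells, held the largest group. Of its 20 BATF peaks 9 were Tconv preferred and 1 was Treg preferred, over 173978 bp of chromosome 3 (131026281 to 131200259), with 7 of the 9 in the gene body. Mean values at the 9 sites ranged from 29.2 to 80.0 in Tconv cells and from 11.9 to 27.0 in Treg cells, a difference of 2.06-fold to 5.46-fold. The strongest preference was at 131170117 to 131170517, with 12.4 and 11.3 in the Treg libraries and 83.6 and 55.0 in the Tconv libraries. None of the 9 lay on an IRF4 peak and 1 lay on a Foxp3 peak. Fam78a had 5 such sites among 9 peaks, St8sia1, which encodes a sialyltransferase of ganglioside synthesis, had 4 of 10, and Cox10, which encodes a heme A synthesis enzyme of mitochondria, had 4 of 7.

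The site with the lowest ratio lay 37320 bp from Cox10 at chr11:64116792-64117192, with 3.11 and 0 in the Treg libraries against 91.8 and 131 in the Tconv libraries. Nearly no BATF reads fell there in Treg cells, where 3.11 stands for 3 reads. A site in Slc4a4, which encodes a sodium bicarbonate cotransporter, had 1.04 and 0 against 51.1 and 44.3, and one in Mgme1, a mitochondrial exonuclease gene, had 1.04 and 3.39 against 56.9 and 88.5. The next 5 by ratio were at Itsn2, Gtf2ird1, Ctnnd2 and Zfp800 and at 1 site without a gene within reach (chr2:118007963-118008363). Their values over the 2 Treg libraries went from 0 to 5.65 and over the 2 Tconv libraries from 32.1 to 99.3.

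The strongest binding in Tconv cells among the 675 was found at Clec16a, with 188 and 289 in Tconv and 100.5 and 134 in Treg cells. Tbcel, Gramd3, Lrrfip1 and Ccr7 were also among the sites with the highest Tconv means. Ccr7, which encodes the chemokine receptor that guides naive and central T cells into lymph nodes, had its site 7419 bp from the gene body, with 146 and 202 in the Tconv libraries against 84.0 and 70.0 in the Treg libraries. At these 5 strong sites the Treg libraries still carried binding of 36.1 or more, so the preference was one of degree. Sites just inside the limit lay at Tspan14, Kcnh2 and Spef2 with ratios of 0.4991, 0.4993 and 0.4995, and peaks just outside it lay at Stom and Tnfrsf19 and at 1 peak without a gene, with ratios of 0.5003, 0.5003 and 0.5004. A further 26 peaks had a ratio of at most 0.5 but a Tconv value under 20.

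Gene lists of T cell states were set beside the 4.19% of all BATF peaks that were Tconv preferred, as counts without a test. Of 72 peaks at genes known for lower expression in Treg than in Tconv cells, 18 (25%) were Tconv preferred and 9 Treg preferred. They fell to 6 genes: Lef1 (9 of the 18), Satb1, Pde3b, Dapl1, Themis and Actn1. Without Lef1 the share was 9 of 52 (17.3%). Satb1, a chromatin organiser that Foxp3 is known to repress, had a site 59553 bp from its body with 18.7 and 12.4 in Treg against 69.7 and 59.3 in Tconv cells. Pde3b, a cyclic nucleotide phosphodiesterase gene, had 9.33 and 29.4 against 76.7 and 86.4 within its body. At both the higher Treg library stayed below the lower Tconv library, a separation that the choice of sites largely fixes.

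Naive or central T cell genes had 23 Tconv preferred sites of 236 peaks (9.75%), 9 of them at Lef1, beside 44 Treg preferred peaks. Without Lef1 the share was 14 of 216 (6.48%). The other sites lay at Pde3b, Satb1, Ikzf1, Dapl1, Foxp1, Bach2, Ccr7, Actn1 and Rapgef6. Foxp1, a forkhead factor of T cell quiescence, had 3 sites with Tconv means of 50.5 to 54.7 and Treg means of 18.2 to 23.9. Bach2, a repressor that competes with AP-1 factors, had 1 site, 71962 bp away, with 18.7 and 18.1 in Treg against 56.9 and 40.7 in Tconv cells. Genes of Foxp3 partner factors, a list that shares several of these names, had 19 of 176 (10.8%), among them 2 sites at Runx1 and 1 at Runx3, factors that set T cell lineage programs. Of the 19 sites 9 were at Lef1, the share without it was 10 of 156 (6.41%), and 32 peaks of the list were Treg preferred.

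T cell receptor and costimulatory signalling genes had 10 Tconv preferred sites of 223 peaks (4.48%), a share near that of all BATF peaks, and 44 Treg preferred ones. Cblb, a ubiquitin ligase that restrains T cell activation, had 14.5 and 0 in the Treg libraries against 89.4 and 62.1 in the Tconv libraries at a site 23833 bp away. Cd28, the costimulatory receptor gene, had 4.15 and 5.65 against 43.0 and 51.4 at a site 40023 bp away, while its other 5 BATF peaks were shared. Sites also lay at Themis (2), Ubash3b and Pik3cd.

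Th1 genes had 4 Tconv preferred sites of 29 peaks (13.8%) and 5 Treg preferred peaks. The 4 sites lay at Runx3, Ifngr1 and Eomes (2), with Ifngr1, an interferon gamma receptor subunit gene, 93471 bp from its site. No such site was found among 21 peaks at Th2 genes, 28 at Th17 genes, 51 at T follicular helper genes and 39 at cytokine and TNF ligand genes, of which 7, 17, 22 and 18 were Treg preferred. Lists of this size hold few sites at the share of all BATF peaks, so these counts of 0 do not set the lists apart from it. Treg core genes had 1 of 60 (Nt5e, the ecto-nucleotidase CD73) and 47 Treg preferred peaks, and effector Treg genes had 4 of 106, at Lag3, Gzmb, Irf4 and Prdm1, and 68 Treg preferred peaks. Cytokine receptor and STAT genes had 1 of 106 (Ifngr1), AP-1, BATF and IRF genes 2 of 83 (Bach2 and Irf4), homing genes 2 of 77 (Cxcr4 and Ccr7) and housekeeping genes 0 of 29. The bar plot of gene lists gives these shares side by side, and genes stand in more than 1 list.

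**Figure D2:**
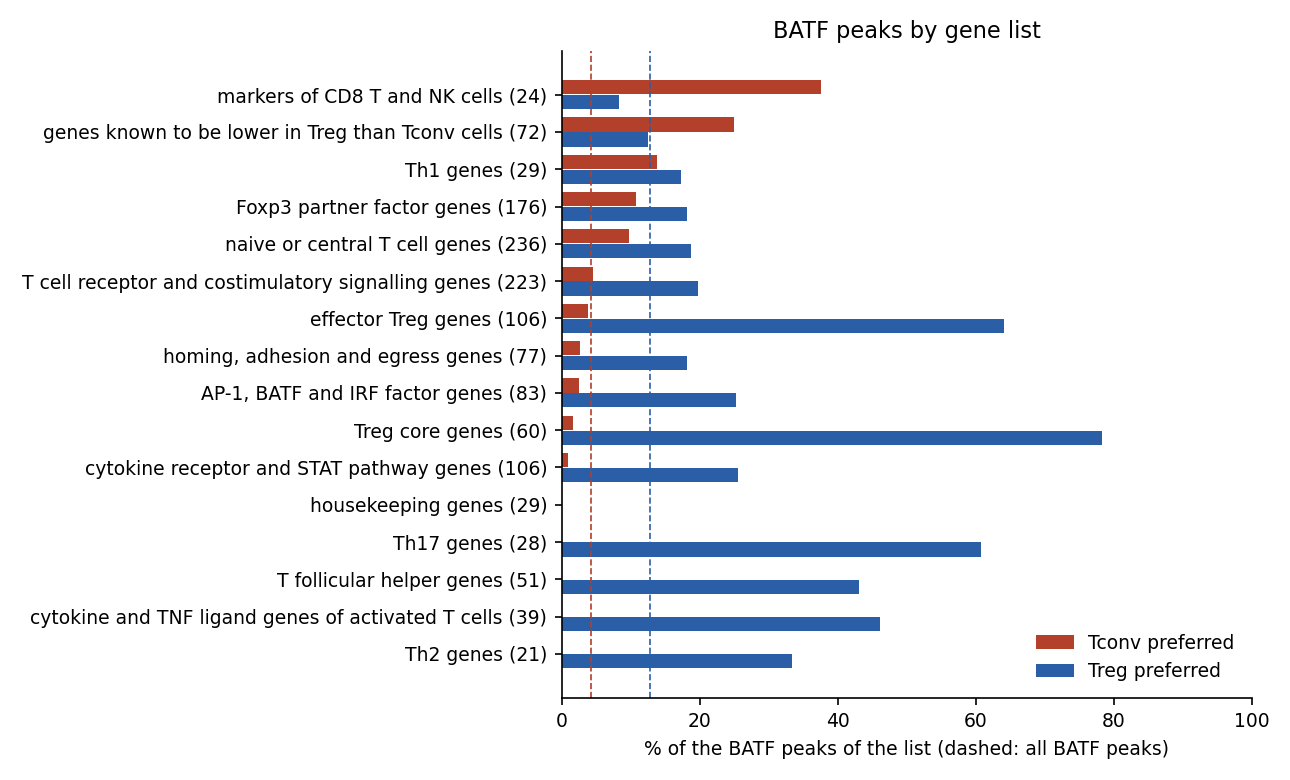
Share of the BATF peaks of each gene list that were Tconv preferred (red) or Treg preferred (blue), for lists with at least 20 peaks (number of peaks in parentheses). Dashed lines give the shares over all BATF peaks (4.19% and 12.8%), and red bars are longest for CD8 T and NK cell markers and for genes known to be lower in Treg cells.

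Of 24 BATF peaks at markers of CD8 T and NK cells 9 (37.5%) were Tconv preferred, at Prf1 (3), Fasl (2), Eomes (2), Gzmb and Crtam. The 2 Eomes sites lay 81399 and 86992 bp and the Gzmb site 33671 bp from the gene body. Over the whole list the median log2 ratio of Treg to Tconv values was -0.040, against -0.025 over all BATF peaks. At the Prf1 site with the lowest ratio the Treg libraries had 3.11 and 11.3 and the Tconv libraries 43.0 and 68.6. Of the 17 genes on this list, 7 had a BATF peak. The defining markers Cd8a, Ncr1, Klrd1, Klrk1, Nkg7 and Gzma had no BATF peak, the 1 peak at Cd8b1 was shared (35.6 in Treg and 49.6 in Tconv cells), and of 5 peaks at the NK cell marker Klrb1c 4 were shared and 1 was Treg preferred. The list held 2 Treg preferred peaks in all, and values summed over the list ranged from 1475 to 1624 in the Treg and from 1563 to 1596 in the Tconv libraries. B cell markers had 3 peaks and myeloid markers 7, none Tconv preferred, and markers of NKT and gamma delta T cells had none. The part of other cells in the CD4+hCD2- sort was not tested. In such bulk samples fewer cells that bind and less binding per cell cannot be told apart.

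Most Tconv preferred sites had no peak of IRF4 or Foxp3. IRF4 peaks were found at 182 of the 675 (27.0%), against 40.2% of shared and 68.1% of Treg preferred peaks. Foxp3 peaks were found at 117 (17.3%), against 16.0% and 40.04%. Over 1000 bp from a start site, where most of the 675 lie, the shares were 28.1%, 44.0% and 68.6% for IRF4 and 18.3%, 26.0% and 41.1% for Foxp3. Neither factor had a peak at 432 sites (64.0%), and both had one at 56. These shares are descriptions, since peaks are not replicates and the sites were also weaker than shared peaks.

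IRF4 was lower in Treg cells at most of the sites where it had a peak. All 182 overlapping peaks had their values compared over 4 libraries against 4, by limma on log2 of value plus 1 with Benjamini-Hochberg adjustment over all IRF4 peaks. Of the 182, 136 (74.7%) were lower in Treg cells at an adjusted p under 0.05 and none was higher, beside 8.39% lower and 15.8% higher over all 9134 IRF4 peaks. At an unadjusted p under 0.05, 156 were lower and none higher, but the share of all IRF4 peaks at this cut is not given here. The median log2 difference was -1.47, against -0.05 over all IRF4 peaks, and 180 of the 182 lay below 0. Every Treg library was below every Tconv library at 119 of them (65.4%, against 8.24% of all IRF4 peaks) and above every one at none (against 15% of all). Median values over the 182 peaks were 6.45 to 8.55 in the 4 Treg libraries and 20.2 to 24.4 in the 4 Tconv libraries.

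The remaining 493 sites have no IRF4 value. How a peak entered the IRF4 list is not stated, and a weak peak listed through the Tconv libraries alone had to be lower in Treg cells. Among the 46 of the 182 that stood above the median of all IRF4 peaks in mean value, 39 were lower, none was higher, and the median log2 difference was -1.35. Over all IRF4 peaks above that median 9.42% were lower. Keeping the peaks above the 25th percentile of the table left 92 of the 182, of which 71 were called lower.

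Tnks, which encodes tankyrase, showed the second largest IRF4 difference of the 182. IRF4 was at 4.61, 7.93, 7.48 and 4.26 in the Treg libraries and at 63.8, 89.1, 73.1 and 69.7 in the Tconv libraries, a log2 difference of -3.44 (SE 0.32, limma adjusted p 1.17e-07). The ranges lay far apart, and BATF at the same site had 3.11 and 4.52 against 70.8 and 70.7. Calcrl, an adrenomedullin receptor gene, had the largest difference, -3.50 (SE 0.59), from 0 to 3.21 in Treg and 17 to 26.3 in Tconv cells. Nemp2, Rexo2, Zfp800 and Atp8b4 followed, with log2 differences from -3.11 to -2.96 and limma adjusted p-values from 1.01e-05 to 0.000357.

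Of the 10 Tconv preferred sites at T cell receptor and costimulatory signalling genes 4 had an IRF4 peak, all 4 called lower, and of the 23 at naive or central T cell genes 6 had one, 5 of them called lower. At Cblb IRF4 was at 12, 3.17, 3.21 and 10.2 in Treg and at 26.7, 37.6, 36.1 and 42.3 in Tconv cells (log2 difference -2.35, SE 0.42, limma adjusted p 0.000262), with no overlap. At Pde3b Treg libraries ranged from 5.53 to 11.1 and Tconv libraries from 18.9 to 30.9 (limma adjusted p 0.00908). At Satb1 the Treg mean was 3.76 ± 2.54 and the Tconv mean 14.1 ± 5.45 (SD over 4 libraries, limma adjusted p 0.0183). The Satb1 call was lost without Treg library 1, with an adjusted p of 0.0514, and without Tconv library 2, with 0.0786. At Fasl, the ligand of the Fas death receptor, IRF4 was at 1.84 to 6.34 in Treg and 16.2 to 31.5 in Tconv cells (log2 difference -2.41, SE 0.47, limma adjusted p 0.000577). At the site 15784 bp from Irf4 itself the means were 4.71 ± 3.69 and 11.2 ± 4.73, and at Ccr7 9.94 ± 2.71 and 21.1 ± 4.82, and neither passed the test (limma adjusted p 0.123 and 0.0538).

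**Figure D3:**
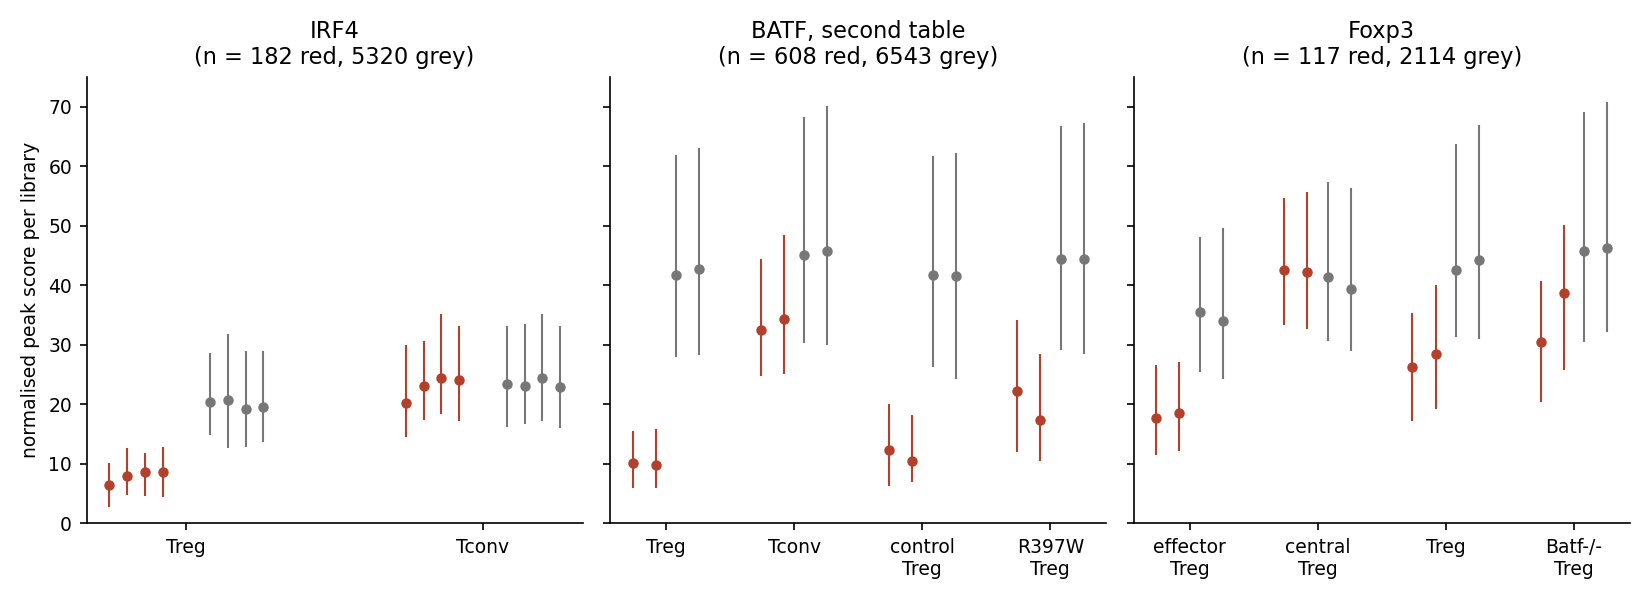
Median (points) and quartiles (bars) of the normalised peak score in each library, at peaks on Tconv preferred BATF sites (red) and on shared BATF peaks (grey), for IRF4, BATF of the second table and Foxp3. Red points are low in Treg and high in Tconv libraries for IRF4, intermediate in R397W Treg cells for BATF, and low in effector and high in central Treg cells for Foxp3, while the grey points differ less between libraries.

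The R397W comparison asks how BATF binds in Treg cells whose Foxp3 carries the R397W substitution in its forkhead domain. The second BATF table, with 9973 peaks, held 608 of the 675 sites (90.1%). Median values over them were 12.3 and 10.4 in the 2 control libraries and 22.2 and 17.3 in the 2 R397W libraries. In the same table the Treg libraries had 10.1 and 9.84 and the Tconv libraries 32.4 and 34.3, which are the libraries the sites were chosen on. BATF was higher in R397W cells at 21 of the 608 (3.45%, limma adjusted p under 0.05) and lower at none, beside 0.612% higher and 8.04% lower over the whole table. At an unadjusted p under 0.05, 116 were higher and 1 was lower, but the share of the whole table at this cut is not given here. Both R397W libraries lay above both control libraries at 297 (48.8%, against 22.7% of all peaks) and below both at 18 (2.96%, against 28.8%), and the median log2 difference was 0.70, against -0.02 over all peaks. A weak peak listed through R397W cells alone had to be higher in them. Above the median peak of the second table in mean value, 6 of 32 on the sites were higher and none lower. Over all peaks above that median 0.762% were higher and 9.71% lower.

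The log2 difference was above 0 at 491 of the 608 sites (80.8%, against 49.1% of all peaks of the second table). The R397W mean was above the control mean at 498 and at 43 reached or passed the Tconv mean. The choice of sites made the Tconv values high, so values below them are partly built in. Sites with a Foxp3 peak had a median log2 difference of 0.80 and 10 of 104 called higher, and those without one 0.66 and 11 of 504. Sites with an IRF4 peak had 0.87 and 13 of 164, and those without one 0.63 and 8 of 444. The difference between these groups was not tested, and the shares called among all peaks with and without these factors are not given here. Depth was low here: 144319 to 655609 reads lay in peaks per library, and in control library 2 the median site held 3 reads. The count of 21 rested on single libraries, since it was 57 without control library 1, 6 without control library 2, 0 without R397W library 1 and 4 without R397W library 2. The first BATF table and the second share their Treg and Tconv libraries, but the control and R397W libraries had no part in choosing the sites.

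Nemp2, a nuclear envelope protein gene, had BATF at 6.17 and 6.92 in control and 59.8 and 48.5 in R397W Treg cells (log2 difference 2.86, SE 0.56, limma adjusted p 0.00668). The R397W values stood above those of the Tconv libraries, 44.4 and 31.6. Uvrag, an autophagy and endosome gene, had 7.71 and 3.46 against 49.6 and 31.9 (2.71, SE 0.66, limma adjusted p 0.0175). In control library 2 a value of 10.4 stands for 3 reads, so the values there at Nemp2 and Uvrag came from fewer. At a site in Adamts14, an extracellular protease gene, the control libraries held 1.54 and 0, in all 1 read, and the R397W libraries 41.0 and 31.9, so no fold is given (limma adjusted p 0.00769). Kif2a, the second Cox10 site by ratio and a site without a gene at chr4:10769944-10770344 had log2 differences of 2.46, 2.39 and 2.37. All of the 9 named calls in this comparison were lost under at least 1 other setting or without 1 library.

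Several named sites had no called difference between R397W and control cells. At the Cox10 site with the lowest ratio BATF had 1.54 and 0 in control, 3.42 and 6.93 in R397W, and 55.6 and 80.4 in Tconv cells. At the Satb1 site it had 6.17 and 17.3 in control and 17.1 and 7.62 in R397W cells, overlapping ranges. At the Prf1 promoter the values were 4.63 and 10.4 against 6.84 and 3.46, again overlapping, beside 30.3 and 18.9 in Tconv cells. None of these passed the test. The 7 Lef1 sites in this table did not pass it either, but 6 of them had a higher mean in R397W cells, with log2 differences over the 7 from -0.49 to 2.2. The Lef1 site with the largest difference had 9.26 and 0 in control and 29.1 and 6.24 in R397W cells (SE 1.15, limma adjusted p 0.275), and it was called without control library 1 (adjusted p 0.0298). With 2 libraries a group, a missing call does not show that values were alike.

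Foxp3, measured in Treg cells only, had lower values in the effector libraries at most of its peaks on the sites. Of the 117 overlapping Foxp3 peaks 77 (65.8%) were lower in effector cells (limma adjusted p under 0.05) and none was higher, beside 10.8% lower and 15% higher over all 6396 Foxp3 peaks. At an unadjusted p under 0.05, 92 were lower and 1 was higher, but the share of all Foxp3 peaks at this cut is not given here. The median log2 difference was -1.18, against -0.01 over all Foxp3 peaks, and both effector libraries lay below both central libraries at 107 (91.5%, against 32.6%) and above both at 2 (1.71%, against 31.6%). Median values were 17.7 and 18.5 in the effector libraries, 42.6 and 42.3 in the central libraries, and 26.3 and 28.4 in libraries of all Treg cells. The mean of all Treg cells lay between the effector and central means at 62 of the 117. Of the 62 peaks on these sites that stood above the median Foxp3 peak in mean value, 38 were lower in effector cells and 60 had a log2 difference below 0. Over all Foxp3 peaks above that median 13.6% were lower and 14.2% higher. As for IRF4, the 558 sites without a Foxp3 peak have no value, and a weak peak listed through central Treg cells alone had to be lower in effector cells.

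At Map10, a microtubule-associated protein gene, Foxp3 was at 7.60 and 9.80 in effector and 94.6 and 122 in central Treg cells (log2 difference -3.49, SE 0.31, limma adjusted p 3.57e-08). At Satb1 it was at 2.53 and 3.46, from 2 and 6 reads, against 32.0 and 58.6 (-3.48, SE 0.44, limma adjusted p 2.8e-06). Both groups were far apart at these sites, with libraries of all Treg cells in between, at 38.4 and 56.8 for Map10 and 19.2 and 21.7 for Satb1. Tet1, a DNA demethylase gene, and Sgms1, a sphingomyelin synthase gene, had log2 differences of -2.69 (SE 0.43) and -2.64 (SE 0.31). At the 1 Lef1 site with a Foxp3 peak the values were 30.4 and 36.9 against 70.6 and 91.2 (limma adjusted p 0.00123), and at Gzmb, the granzyme B gene, 8.87 and 10.4 against 44.0 and 32.6 (limma adjusted p 0.00146).

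In Batf-/- Treg cells Foxp3 had no called difference at most of its peaks on the sites (111 of 117), as at most Foxp3 peaks of the table (6111 of 6396). Of the 117 peaks 6 (5.13%) were higher in Batf-/- Treg cells and none was lower (limma adjusted p under 0.05), beside 0.547% higher and 3.91% lower over all Foxp3 peaks. At an unadjusted p under 0.05, 17 were higher and none was lower, but the share of all Foxp3 peaks at this cut is not given here. The median log2 difference was 0.25, against 0.05 over all Foxp3 peaks. Both knockout libraries lay above both wild-type libraries at 36 (30.8%, against 22.8%) and below both at 8 (6.84%, against 20.4%). A weak peak listed through Batf-/- cells alone had to be higher in them. Above the median Foxp3 peak in mean value, 3 of 62 on the sites were higher and none lower. Over all Foxp3 peaks above that median 0.438% were higher and 3.16% lower. Ubac2, an endoplasmic reticulum protein gene, had Foxp3 at 11.1 and 9.19 in wild-type and 30.5 and 47.6 in Batf-/- Treg cells (1.82, SE 0.36, limma adjusted p 0.00309). Actn1, an actin cross-linker gene, had 68.8 and 67.7 against 146 and 122 (0.96, SE 0.24, limma adjusted p 0.0194). The other 4 were at Mcoln2, Retreg1, Cfap54 and Kif1b, with log2 differences from 0.91 to 1.45, and at all 6 both knockout libraries were above both wild-type libraries. The count fell to 1 without wild-type library 1 and to 1 without wild-type library 2.

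**Figure D4:**
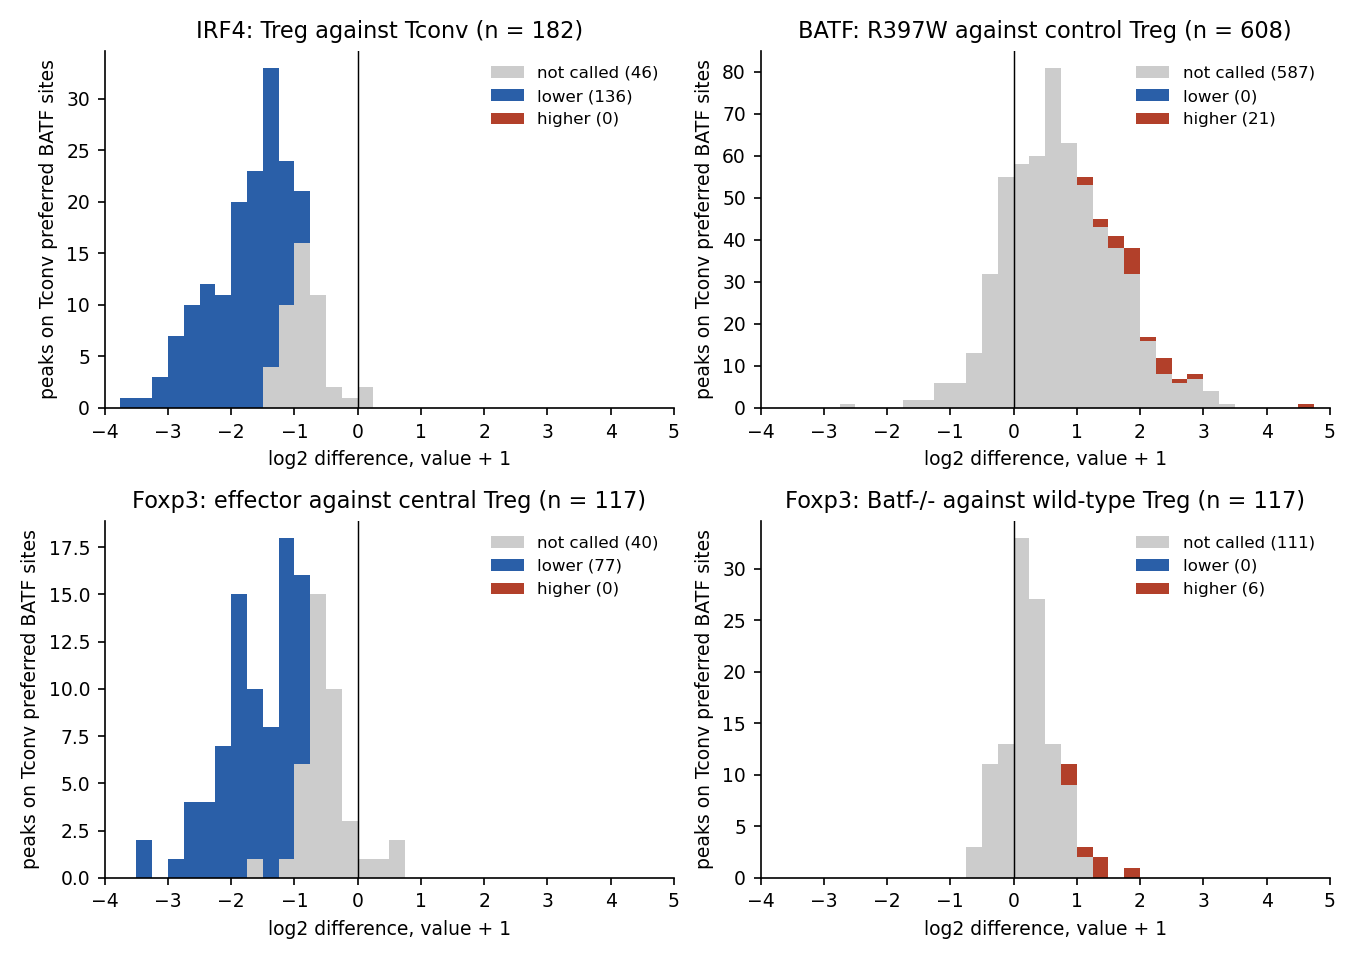
Number of peaks on Tconv preferred BATF sites by log2 difference (x, on value plus 1) in 4 comparisons, stacked by the limma call at an adjusted p under 0.05. IRF4 and effector Treg differences lie mostly below 0 with 136 and 77 called lower, and R397W and Batf-/- differences lie mostly above 0 with 21 and 6 called higher.

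Of the 675 sites 479 had no call in any comparison (this includes sites without a peak of the other factors), 161 had a call in 1, 26 in 2 and 9 in 3. IRF4 lower in Treg cells and Foxp3 lower in effector Treg cells met at 25 of the 56 sites with a peak of both. Taken alone, these calls were made at 74.7% of the IRF4 and 65.8% of the Foxp3 peaks on the sites. IRF4 lower and BATF higher in R397W cells met at 12 of 164 sites with a peak of both, where 13 were called higher in R397W cells. Peaks of IRF4, Foxp3 and the second BATF table all lay at 47 sites. At 7 sites all of these 3 calls were made: in Uvrag, Gramd3, Runx1 and Lrrfip1, 23835 bp from Cnpy1, and at 2 sites without a gene within 100000 bp, at chr2:75073251-75073651 and chr4:10769944-10770344. They were chosen after their values were seen. These counts rested on single BATF libraries, in a comparison added after seeing the data. The 7 became 0 without R397W library 1, 2 without R397W library 2 and 2 without control library 2, and the 12 became 0, 3 and 4, and 22 without control library 1. The 25 became 16 without effector library 1. None of the 675 was called in all 4 comparisons, and the overlaps are given as counts, with no test.

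In Runx1, at chr16:92640998-92641398, IRF4 was at 1.84, 4.76, 6.41 and 5.97 in Treg and 18.6, 16.7, 20.8 and 14.9 in Tconv cells (-1.79, SE 0.47, limma adjusted p 0.00707). BATF there was at 17 and 6.92 in control, the latter from fewer than 3 reads, and at 47.9 and 43.7 in R397W Treg cells (1.97, SE 0.55, limma adjusted p 0.0337). Foxp3 was at 7.60 and 14.4 in effector and 37.3 and 35.6 in central Treg cells (-1.70, SE 0.39, limma adjusted p 0.00202). In none of the 3 comparisons did the groups overlap, at a site that was chosen by its calls in them. BATF in the first table had 24.9 and 21.5 in Treg against 81.3 and 70.7 in Tconv cells. At Uvrag IRF4 was at 1.84 to 9.62 in Treg and 28.9 to 58.3 in Tconv cells, and Foxp3 at 16.5 and 18.5 in effector and 51.9 and 64.5 in central Treg cells.

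Lrrfip1, a gene for a nucleic acid binding protein, combined strong BATF binding with smaller differences. IRF4 averaged 15.7 ± 2.84 over the Treg and 29.8 ± 3.97 over the Tconv libraries (SD over 4 libraries each, limma adjusted p 0.0356), a call that was lost without Treg library 1 or 3 and without Tconv library 2 or 4, at adjusted p-values from 0.0707 to 0.0958. BATF was at 43.2 and 38.04 in control and 97.5 and 92.2 in R397W cells, close to the 95.8 and 121 of the Tconv libraries. Foxp3 was at 15.2 and 17.9 in effector and 34.6 and 40.03 in central Treg cells. The BATF and Foxp3 calls at Lrrfip1 were also each lost in some of the fits without 1 library. The dot plot of these 7 sites shows the groups apart in each of the 3 comparisons, which their choice by these calls largely fixes.

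**Figure D5:**
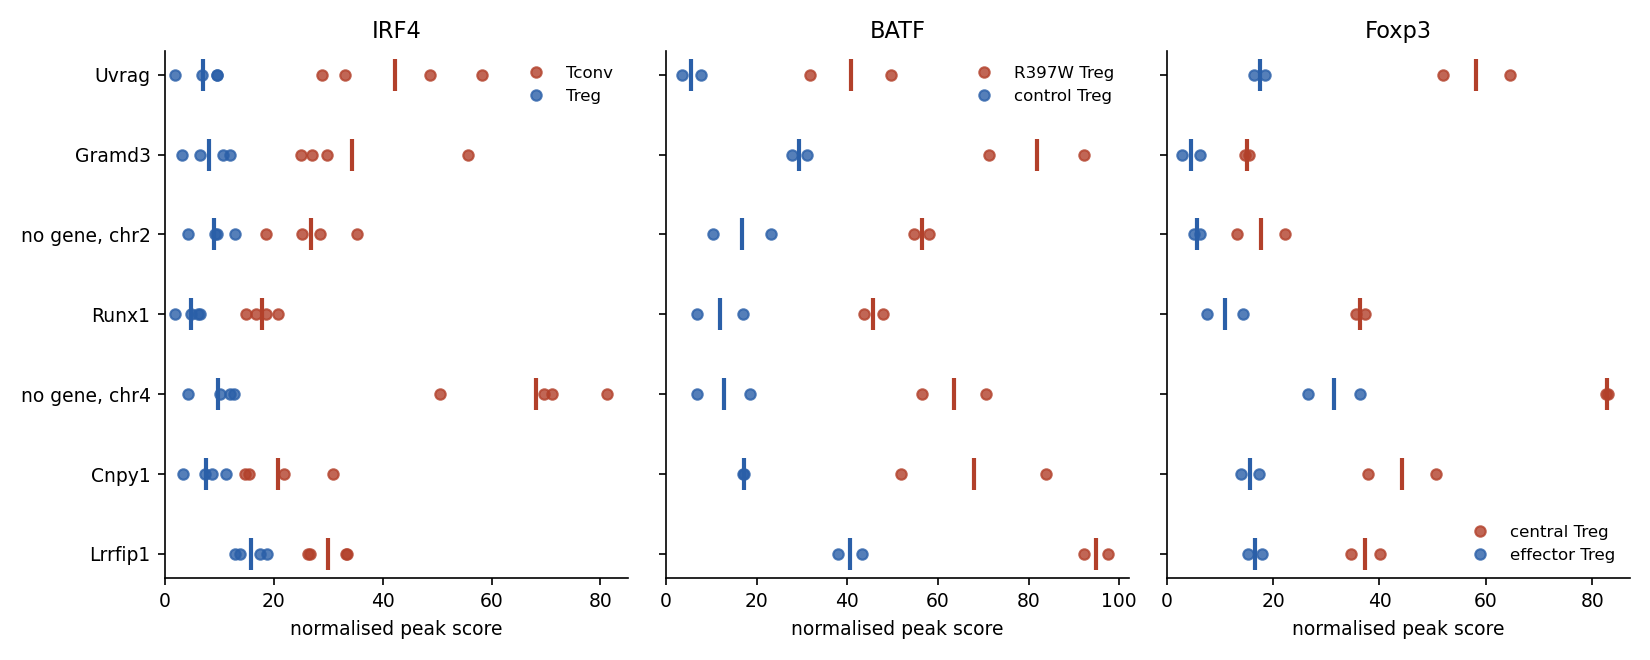
Normalised peak score of each library (points) and group mean (bars) at the 7 sites called in IRF4, BATF R397W and Foxp3 comparisons, rows ordered by BATF ratio. At each site IRF4 Tconv, R397W and central Treg values (red) lie above Treg, control and effector Treg values (blue), from the chr4 site with IRF4 at 9.76 and 68.1 to Lrrfip1 with 15.7 and 29.8.

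The Themis and Actn1 sites, whose promoter windows are printed above, also lay under both other factors. At Themis IRF4 was at 13.8, 12.7, 10.7 and 14.5 in Treg and 38.8, 17.4, 59.6 and 32.0 in Tconv cells (limma adjusted p 0.0071), and Foxp3 at 39.3 and 36.3 in effector and 69.3 and 66.0 in central Treg cells (limma adjusted p 0.0297). BATF at Themis was at 13.9 and 41.5 in control and 25.6 and 32.6 in R397W cells, which overlap. At Actn1 Foxp3 was at 27.9 and 30.6 in effector and 83.9 and 91.2 in central Treg cells (limma adjusted p 4.24e-05). The Prf1 and Xkrx promoter sites had neither an IRF4 nor a Foxp3 peak, with BATF at 6.22 and 12.4 in Treg against 49.9 and 30.7 in Tconv cells for Prf1, and 8.29 and 9.03 against 29.0 and 45.0 for Xkrx.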

How the data were processed

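Normalised peak scores (a signal per peak and library) were deposited by the authors in 4 tables, 2 for BATF and 1 each for IRF4 and Foxp3. The submitters' processing notes name mm10, Bowtie2 2.4.1, MACS2 2.2.7.1, DiffBind 3.12.0 and edgeR 3.38.4, with no roles. How peaks entered a table is not given in the sources used here. Dividing the deposited signal by 1 step per library gave whole numbers for 100% of values (tolerance 0.01), so reads were recovered: 144319 to 2280493 lay in peaks per library, and total depth is unknown. Inputs have no columns and were not used. Positions keep the deposited numbering, base 0 or 1 unsettled. R397W control columns could be tied to their group but to no single sample.

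Peaks were compared with limma 3.58.1 (R 4.3.3) on log2 of value plus 1, using moderated variances with a mean trend, two-sided, with Benjamini-Hochberg adjustment over each whole unfiltered table. A single model of the 8 Foxp3 libraries gave both Foxp3 contrasts. The scripts were tested on simulated data. An overlap of 1 bp counted. Each site was given the closest body of a protein-coding gene, up to 100000 bp away (RefSeq, GRCm38.p6), and start distances exist for 654 sites. All gene list names but 2 (Tcrg-C1 and Scart2) were matched. The sites, gene lists and motifs were chosen with earlier results of these data known. Named sites were the 8 with the lowest ratio, the 6 with the highest Tconv mean, genes with 4 or more sites, up to 3 per list, and per comparison the 6 largest called changes in each direction, and others were chosen after their values were seen. Alternatives were edgeR 4.0.16's quasi-likelihood test on recovered reads, quantile and TMM scaling, pseudocounts, filters, other limits, a replicate block and leaving out each library, and, added after seeing the data, overlaps of calls without each library and gene lists without Lef1. Some sites that meet these rules are not reported here.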

Additional observations from a re-analysis of the deposited data

Results flagged for a closer look

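At Gramd3, 1 of the 7 sites called in 3 comparisons, IRF4 in Tconv library 2 was 55.7, while the other 3 Tconv libraries lay between 25 and 29.7. That library stood apart by Dixon's 95% limit for 4 values. The check covered 19 named IRF4 peaks, 38 groups in all, and chance flags about 1 in 20 groups. All 4 Tconv values were above the highest Treg value, 11.9.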

How the results depend on the processing

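The choice of sites moved with its limits: 675 became 1102 after quantile normalisation and 276 at a ratio of at most 0.33, and 572 to 692 with TMM factors or another pseudocount. Leaving out 1 BATF library gave 707 to 837 sites, of which 561 to 601 were among the 675. IRF4 peaks lower in Treg cells numbered 71 above the 25th percentile, where 92 of the 182 were left, 139 with edgeR and 114 to 130 without 1 library, and none was higher under any setting. BATF peaks higher in R397W cells numbered 39 with edgeR, 10 without a trend of the spread, 33 with pseudocount 5 and 0 to 57 without 1 library, and lower ones 0 to 1 without 1 library. Foxp3 peaks lower in effector cells numbered 64 to 91 under other settings and 53 to 58 without 1 library, and higher ones 1 after quantile normalisation and 0 to 1 without 1 library. Peaks higher in Batf-/- cells numbered 3 above the 25th percentile, 2 after quantile normalisation and 1 to 8 without 1 library, with none lower under any setting. Where a count differs from the main one, the cause was not tested. Where an arm was left with 1 library, that library was assumed to vary like the other groups. Of 42 named calls 20 were lost under at least 1 setting, and none of 94 named values reversed. With the replicate block 138 IRF4 peaks and 76 effector peaks were lower and 5 Batf-/- peaks were higher. Same-numbered IRF4 libraries correlated at 0.0346 to 0.132 in their deviations, and not every one correlated best with its own number, so the numbers were not taken as pairs. No paired analysis was possible because the R397W and control samples carry different numbers in their titles and control columns could be tied only to their group. Depth was low in the R397W comparison, with a median of 3 reads per site in control library 2.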
